A study of Mus musculus with 6 samples.

Results

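The 35 genes described here encode proteins of the centromere, the kinetochore and the spindle assembly checkpoint. They were chosen by symbol from a list written by complex, with earlier results of these data known. All 35 were matched through their Ensembl identifiers among the 38924 genes of the count files. RNA was sequenced from laser-captured cartilage of the anterior nasal septum, the wall between the nasal cavities, of C57BL/6 mouse embryos at embryonic day 14.5, with 3 wild-type (WT) and 3 Apert libraries, each from a separate mouse. Apert embryos carried the genotype Fgfr2+/S252W; EIIA-Cre, which models Apert syndrome: 1 copy of the fibroblast growth factor receptor gene Fgfr2 has the S252W point mutation, and EIIA-Cre is a recombinase transgene whose promoter is active in the early embryo. The mutation is therefore not limited to cartilage cells, and the labels of the WT embryos mention no Cre transgene. The comparison asks how transcripts of this cartilage differ between the genotypes.

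The centromere is the chromosomal site where spindle microtubules attach during cell division. It is marked by nucleosomes that contain the histone variant CENP-A, on which the constitutive centromere-associated network (CCAN, the inner kinetochore) sits throughout the cell cycle. In mitosis the CCAN recruits the KNL1, MIS12 and NDC80 complexes, of which NDC80 holds the microtubule and KNL1 is the platform for checkpoint proteins that delay anaphase until every chromosome is attached. Transcripts of most of these genes are known to peak in late cell cycle phases, so in tissue their abundance is tied to how many cells are dividing. In libraries of bulk tissue, more dividing cells and more RNA per dividing cell cannot be told apart.

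Library totals ran from 8631181 to 10834744 counts in WT and from 6760510 to 10527915 in Apert, so 1 count was worth 0.0923 to 0.148 CPM, the count scaled to library size. Cartilage genes were abundant in every library, with Col2a1 between 16340 and 24540 CPM, while Comp, another cartilage matrix gene, stayed between 0.867 and 5.30 CPM. The mitochondrially encoded share of counts was 29.6% ± 0.756 in the WT group and 37.1% ± 3.06 in the Apert group, and 18820 ± 128 against 18380 ± 143 genes had at least 1 count (SD, n = 3 each). The mean GC content of the sequenced nuclear transcripts was 48.5% ± 0.643 in WT and 47.6% ± 0.185 in Apert (SD, n = 3 each). For each of these 3 properties the groups did not overlap (two-sided exact permutation test, p = 0.1, the smallest that 3 against 3 libraries can give).

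All 35 members passed the filter on low counts, 6 of them rose in Apert cartilage and none fell. The 6 were Knl1, Cenpe, Cenpf, Cenpl, Spc25 and Bub1, and their estimated rises ran from 1.93-fold to 2.28-fold. A call means an adjusted p below 0.05 in edgeR (quasi-likelihood F test), adjusted by Benjamini and Hochberg over all 13333 tested genes, of which 0.398% were called higher and 0.0525% lower. Among the other 29 members 26 had a positive and 3 a negative log2 fold change (log2FC, Apert over WT). Positive values made up 51.1% of all tested genes. The median log2FC was 0.71 over the members and 0.01 over all tested genes. An unadjusted edgeR p below 0.05 with a higher value in Apert was found for 21 members, against 6.35% of all tested genes, and no member had one with a lower value, against 5.01%. DESeq2 called 9 of 30 members with an adjusted p higher (1.47% of all genes) and none lower (0.628%), and limma-voom called the same 6 higher (0.443%) and none lower (0.0675%). In 19 members all 3 Apert libraries lay above all 3 WT libraries, as in 8.92% of tested genes, and in none did they all lie below, as in 7.7%.

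None of the 6 calls remained after each library was corrected for its dependence on transcript GC content. In that fit edgeR called 0.03% of all genes higher and 0.0075% lower, 20 members had an unadjusted p below 0.05 with a higher value in Apert (4.5% of all genes), and none had one with a lower value (3.36%). With 1 library left out the number of members called was 3 without WT replicate 1 (0.0944% of all genes were called higher), 3 without WT replicate 2 (0.16%), 0 without WT replicate 3 (0%), 9 without Apert replicate 1 (0.859%), 2 without Apert replicate 2 (0.0142%) and 2 without Apert replicate 3 (0.0708%). Without WT replicate 3 edgeR called no gene of the whole table, and 18 members had an unadjusted p below 0.05, all with a higher value in Apert.

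**Figure D1:**
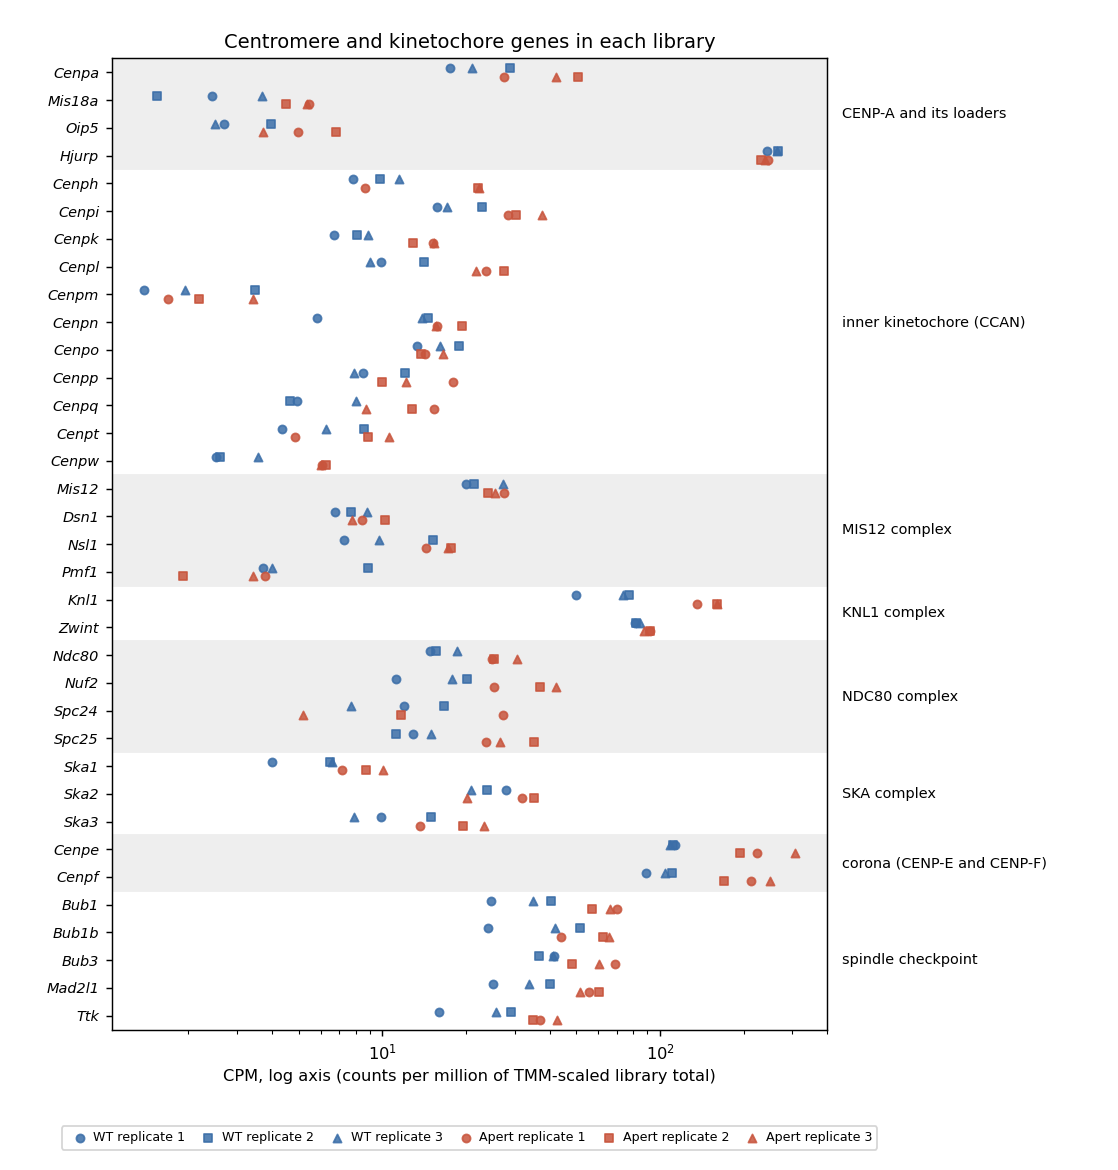
CPM of the 35 members in each library on a logarithmic axis, WT in blue and Apert in red, with the replicate shown by the symbol shape and genes grouped by complex. The red symbols of Knl1, Cenpe, Cenpf, Cenpl, Spc25 and Bub1 lie apart from the blue ones, while those of Hjurp, Cenpo, Dsn1 and Pmf1 overlap them.

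Knl1, the scaffold that binds the BUB checkpoint proteins and links them to the MIS12 and NDC80 complexes, had the largest fold change of the members. It was measured at 49.7, 77.5 and 73.7 CPM in the WT libraries and at 136, 161 and 159.9 CPM in the Apert libraries, in the order of their replicate numbers as everywhere below. The lowest Apert library lay well above the highest WT library. The log2FC was 1.19 (standard error, SE, 0.17; edgeR quasi-likelihood, adjusted p = 0.00453), and it was 0.92 after GC correction (adjusted p = 0.068). The call was lost without WT replicate 3 (adjusted p = 0.051) and without Apert replicate 2 (adjusted p = 0.0859). The gene (ENSMUSG00000027326) spans 119047119 to 119105501 on the plus strand of chromosome 2 (mm10, as do all gene positions here).

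Cenpe encodes a kinesin motor of the outermost kinetochore layer, the corona, that carries chromosomes along microtubules. Its WT libraries were close together at 113, 111 and 108 CPM, and its Apert libraries were spread over 223, 193 and 306 CPM. The log2FC was 1.12 (SE 0.16, adjusted p = 0.00453) and 0.96 after GC correction (adjusted p = 0.0516). Without Apert replicate 3, its highest library, the log2FC was 0.90 and still passed (adjusted p = 0.0331), and of the 6 libraries only leaving out WT replicate 3 took it past the threshold (adjusted p = 0.051). Cenpe (ENSMUSG00000045328) lies on chromosome 3 from 135212563 to 135273540, plus strand.

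Cenpf, the large coiled-coil partner of the corona and a common marker of late cell cycle phases, was measured at 89.3, 110.2 and 104 CPM in WT embryos against 213, 169 and 249 CPM in Apert embryos. The groups were again apart and Apert replicate 3 was again the highest. Its log2FC was 1.06 (SE 0.16, adjusted p = 0.00514), with 0.90 after GC correction (adjusted p = 0.0673). The call was lost without WT replicate 3 (adjusted p = 0.051) or Apert replicate 3 (adjusted p = 0.058). Cenpf (ENSMUSG00000026605) lies on chromosome 1 from 189640599 to 189688086, minus strand.

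Bub1, Cenpl and Spc25 also rose, with adjusted p-values closer to the threshold. Bub1, a checkpoint kinase that docks on KNL1 and marks the inner centromere, was at 24.6, 40.6 and 34.7 CPM in WT embryos against 69.9, 56.8 and 66.0 CPM in Apert embryos (log2FC 0.95, SE 0.20, adjusted p = 0.0381). Cenpl, the partner of CENP-N in the CCAN, was at 9.88, 14.2 and 8.98 CPM in WT embryos against 23.6, 27.4 and 21.7 CPM in Apert embryos (log2FC 1.14, SE 0.24, adjusted p = 0.0462). Spc25, which with SPC24 anchors the NDC80 complex to the inner kinetochore, was at 12.9, 11.2 and 14.9 CPM in WT embryos against 23.7, 35.3 and 26.6 CPM in Apert embryos (log2FC 1.13, SE 0.23, adjusted p = 0.0363). In all 3 genes the Apert libraries lay above the WT libraries. Each call held when Apert replicate 1 was left out and was lost when any of the other 5 libraries was (adjusted p between 0.0512 and 0.293), and after GC correction the log2FCs were 0.74, 0.91 and 0.96 with adjusted p-values of 0.231, 0.231 and 0.136. Bub1 (ENSMUSG00000027379) spans 127801122 to 127831865 on the minus strand of chromosome 2, Cenpl (ENSMUSG00000026708) 161070767 to 161086724 on the plus strand of chromosome 1, and Spc25 (ENSMUSG00000005233) 69193895 to 69206194 on the minus strand of chromosome 2.

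Promoter windows of 32 members were found in the RefSeq table of GRCm38.p6, which takes 250 bases before to 50 bases after each start, and the windows of the 6 genes that rose are shown because cell cycle genes are known for short shared promoter elements. Hjurp is added as a member whose level did not separate the groups. Capitals mark each match on either strand to CCAAT (the NF-Y element), to TTTGAA (the core of the cell cycle genes homology region, CHR) or to one of 4 E2F words, TTTCCCGC, TTTGGCGC, TTTGCCGC and TTTCGCGC. The windows are chr2:119046869-119047168 (plus strand) for Knl1, chr3:135212313-135212612 (plus) for Cenpe, chr1:189688037-189688336 (minus) for Cenpf, chr1:161070517-161070816 (plus) for Cenpl, chr2:69206164-69206463 (minus) for Spc25, chr2:127831810-127832109 (minus) for Bub1 and chr1:88277530-88277829 (minus) for Hjurp, each written 5′ to 3′ in the direction of the gene.
Knl1: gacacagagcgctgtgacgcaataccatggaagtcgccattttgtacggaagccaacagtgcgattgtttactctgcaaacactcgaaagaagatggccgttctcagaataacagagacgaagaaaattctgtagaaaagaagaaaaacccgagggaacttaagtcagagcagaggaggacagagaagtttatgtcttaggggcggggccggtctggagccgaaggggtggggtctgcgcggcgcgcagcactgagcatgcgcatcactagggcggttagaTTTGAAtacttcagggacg
Cenpe: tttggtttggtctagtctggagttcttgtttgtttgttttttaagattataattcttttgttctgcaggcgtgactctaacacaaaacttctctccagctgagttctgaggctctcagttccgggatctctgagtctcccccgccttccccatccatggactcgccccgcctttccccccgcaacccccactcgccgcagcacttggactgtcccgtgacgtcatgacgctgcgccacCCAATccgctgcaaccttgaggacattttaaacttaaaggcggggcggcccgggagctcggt
Cenpf: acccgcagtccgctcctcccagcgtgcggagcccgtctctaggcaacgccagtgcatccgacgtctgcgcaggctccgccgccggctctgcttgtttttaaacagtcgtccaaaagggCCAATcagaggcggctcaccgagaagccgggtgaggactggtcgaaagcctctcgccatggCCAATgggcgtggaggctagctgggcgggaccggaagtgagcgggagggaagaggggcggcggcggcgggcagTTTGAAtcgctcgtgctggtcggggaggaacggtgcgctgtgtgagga
Cenpl: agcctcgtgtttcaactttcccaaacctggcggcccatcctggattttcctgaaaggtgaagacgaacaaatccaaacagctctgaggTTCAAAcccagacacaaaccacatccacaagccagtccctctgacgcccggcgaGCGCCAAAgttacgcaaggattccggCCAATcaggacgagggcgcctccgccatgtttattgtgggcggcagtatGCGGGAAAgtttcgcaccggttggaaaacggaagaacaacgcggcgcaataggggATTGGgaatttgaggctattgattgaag
Spc25: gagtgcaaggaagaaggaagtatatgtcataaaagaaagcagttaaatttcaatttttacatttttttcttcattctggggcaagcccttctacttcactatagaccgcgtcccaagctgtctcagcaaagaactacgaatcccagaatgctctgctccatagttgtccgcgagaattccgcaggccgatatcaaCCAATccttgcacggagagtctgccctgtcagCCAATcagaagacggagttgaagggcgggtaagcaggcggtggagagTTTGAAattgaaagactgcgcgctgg
Bub1: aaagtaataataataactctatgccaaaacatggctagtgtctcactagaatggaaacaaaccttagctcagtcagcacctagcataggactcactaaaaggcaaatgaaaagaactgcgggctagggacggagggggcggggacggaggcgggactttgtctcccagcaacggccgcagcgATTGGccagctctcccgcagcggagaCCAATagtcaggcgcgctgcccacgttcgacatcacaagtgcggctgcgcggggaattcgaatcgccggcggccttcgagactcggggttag
Hjurp: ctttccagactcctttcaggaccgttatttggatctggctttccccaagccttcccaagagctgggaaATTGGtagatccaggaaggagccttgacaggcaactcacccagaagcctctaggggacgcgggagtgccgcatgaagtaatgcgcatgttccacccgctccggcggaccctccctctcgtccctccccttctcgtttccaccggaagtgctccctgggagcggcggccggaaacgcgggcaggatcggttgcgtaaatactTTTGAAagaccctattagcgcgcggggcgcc

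CCAAT was found in 25 of the 35 windows of members (71.4%; Cenpk and Bub3 have more than 1 window, and those of Bub3 overlap), against 37.4% of all 32851 windows and 37.9% of those of tested genes. TTTGAA was found in 16 windows (45.7%), against 17.9% of all windows and 11.9% of those of tested genes. An E2F word was found in 4 windows (11.4%, against 2.3% and 3.9%), those of Cenpl, Cenpm, Dsn1 and Mis18a. CCAAT and TTTGAA together were in 13 windows (37.1%), against 7.0% and 4.9%. Of these 2 words, the Cenpf, Cenpl and Spc25 windows hold both, those of Cenpe and Bub1 hold CCAAT alone and that of Knl1 holds TTTGAA alone. Variants of the words, such as the TTCGAA in the Bub1 window, were not searched, so a window without a match may still hold a variant. Of the 3 members with negative log2FCs, Hjurp and Pmf1 hold both as well, while the Cenpo window holds none of these words. In the Cenpw window the 2 words share a base. Matches of letters are descriptions of these windows and were not tested as binding sites.

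The CENP-A nucleosome and its loading factors had no member called, where 0.398% of all tested genes were called higher and 0.0525% lower. Cenpa, the histone variant itself, was at 17.5, 28.9 and 21.1 CPM in WT embryos against 27.4, 50.5 and 42.3 CPM in Apert embryos, so the lowest Apert library lay just below the highest WT library. Its log2FC was 0.83 (SE 0.24, adjusted p = 0.164) and 0.82 after GC correction. Mis18a and Oip5, subunits of the complex that licenses centromeres for new CENP-A, were weakly expressed at 1.54 to 6.81 CPM, with log2FCs of 1.0 and 0.76 and SEs of 0.46 and 0.43. The Apert libraries of Mis18a (4.49 to 5.45 CPM) lay above its WT libraries (1.54 to 3.68 CPM), and those of Oip5 overlapped. Oip5 shares 9.7% of its exon bases with Nusap1 on the opposite strand, and fragments were counted without strand, so part of its count is uncertain. Hjurp, the chaperone that deposits CENP-A, stood apart from the other 3: it was at 242, 267 and 263 CPM in WT embryos against 244, 231 and 239 CPM in Apert embryos. Its log2FC was -0.11 (SE 0.13, adjusted p = 0.793), and no alternative gave a value outside -0.27 to -0.05.

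Among 11 CCAN genes only Cenpl was called, where 0.398% of all tested genes were called higher. The log2FCs had a median of 0.79, against 0.01 over all tested genes. After GC correction these medians were 0.58 and 0.002, with Cenpi at 0.58 and Cenpp at 0.29, and no CCAN gene was called. In 6 genes the Apert libraries lay above the WT libraries, as in 8.92% of all tested genes: Cenpi, Cenpk, Cenpl, Cenpn, Cenpq and Cenpw. Cenpi and Cenpk, of the CENP-H/I/K/M subcomplex, had log2FCs of 0.79 (SE 0.22, adjusted p = 0.136) and 0.88 (SE 0.27, adjusted p = 0.178). Cenpi was at 15.7, 22.8 and 17.1 CPM in WT embryos against 28.3, 30.2 and 37.6 CPM in Apert embryos. Cenpk ranged from 6.67 to 8.88 CPM in WT embryos against from 12.9 to 15.4 CPM in Apert embryos. Cenph of the same subcomplex was at 7.80, 9.83 and 11.5 CPM in WT embryos against 8.63, 22.2 and 22.4 CPM in Apert embryos, with Apert replicate 1 among the WT values (log2FC 0.86, and 1.17 without that library, adjusted p = 0.0305). Cenpm, its remaining subunit, had only 16 to 36 counts per library, and its log2FC of 0.08 had an SE of 0.57.

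Cenpn, which reads the CENP-A nucleosome together with CENP-L, was at 5.81, 14.6 and 13.9 CPM in WT embryos against 15.8, 19.3 and 15.6 CPM in Apert embryos. WT replicate 1 was far below the other libraries, and without it the log2FC went from 0.57 to 0.25. In the CENP-O/P/Q group Cenpq had a log2FC of 1.08 (SE 0.33, adjusted p = 0.174), Cenpp of 0.50 (SE 0.30) and Cenpo of -0.12 (SE 0.24). Cenpq ranged from 4.63 to 8.01 CPM in WT embryos against from 8.75 to 15.4 CPM in Apert embryos, while Cenpp (7.90 to 12.1 and 9.94 to 18.0 CPM) and Cenpo (13.4 to 18.8 and 13.8 to 16.5 CPM) overlapped. Cenpo shares 22.5% of its exon bases with Adcy3 and Ptrhd1 on the opposite strand. Cenpw, a histone-fold protein of the CENP-T/W pair, was at 2.51, 2.60 and 3.57 CPM in WT embryos against 6.05, 6.26 and 6.00 CPM in Apert embryos, with no overlap but an SE of 0.40 on a log2FC of 1.08 (adjusted p = 0.303). Its partner Cenpt, which forms a second arm towards the NDC80 complex, overlapped between the groups at 4.33 to 8.58 and 4.86 to 10.5 CPM (log2FC 0.33, SE 0.37).

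The MIS12 complex is the bridge between the CCAN and the outer kinetochore. Its 4 genes had the lowest median log2FC of the 8 groups of members, 0.18, and 0.11 after GC correction. In none of them were the genotypes apart, where Apert lay above WT in 8.92% of all tested genes and below in 7.7%. Mis12 was at 20, 21.3 and 27.3 CPM in WT embryos against 27.5, 24.0 and 25.4 CPM in Apert embryos (log2FC 0.17, SE 0.21). Dsn1 had a log2FC of 0.19 (SE 0.30) and Nsl1 of 0.61 (SE 0.28, adjusted p = 0.432). Their libraries overlapped, at 6.76 to 8.77 and 7.78 to 10.2 CPM for Dsn1 and at 7.28 to 15.2 and 14.4 to 17.7 CPM for Nsl1. Pmf1 was at 3.73, 8.87 and 4.01 CPM in WT embryos against 3.77, 1.91 and 3.40 CPM in Apert embryos. Its log2FC of -0.86 (SE 0.46, adjusted p = 0.508) was the most negative of the members and shrank to -0.35 without WT replicate 2, the library with the high value.

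In the KNL1 complex the 2 subunits had unequal fold changes. Zwint, the KNL1 partner that recruits the motor adaptor complex, was at 80.9, 81.7 and 84.9 CPM in WT embryos against 92.3, 92.3 and 87.5 CPM in Apert embryos. Its groups did not overlap, yet the log2FC was 0.14 (SE 0.14, adjusted p = 0.767). After GC correction it was -0.03, and with scaling by library totals alone it was -0.02. Knl1 remained positive in every alternative, between 0.76 and 1.3. The difference between the 2 genes was not tested.

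In the NDC80 complex, which forms the main microtubule attachment, Spc25 rose and the other 3 subunits did not pass. The median log2FC of the complex was 0.90, and 0.72 after GC correction. Nuf2 was at 11.2, 20.2 and 17.8 CPM in WT embryos against 25.2, 37.0 and 42.3 CPM in Apert embryos, with every Apert library above the WT libraries (log2FC 1.08, SE 0.25, adjusted p = 0.0699). Ndc80 was also apart, at 14.8, 15.6 and 18.6 CPM in WT embryos against 24.9, 25.2 and 30.5 CPM in Apert embryos (log2FC 0.71, SE 0.21, adjusted p = 0.169). Spc24 was at 12, 16.7 and 7.68 CPM in WT embryos against 27.1, 11.7 and 5.19 CPM in Apert embryos, so the highest and the lowest library were both Apert. Its log2FC was 0.30 (SE 0.42), and -0.54 without Apert replicate 1. Nuf2 passed without Apert replicate 1 (adjusted p = 0.0123).

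The SKA complex, which tracks microtubule ends beside NDC80, had no gene called, where 0.398% of all tested genes were called higher and 0.0525% lower. Ska3 was at 9.88, 14.9 and 7.90 CPM in WT embryos against 13.7, 19.5 and 23.2 CPM in Apert embryos (log2FC 0.77, SE 0.29, adjusted p = 0.302). Ska1 was weaker, at 3.99 to 6.60 and 7.14 to 10.1 CPM, and its groups did not overlap (log2FC 0.60, SE 0.34). Ska2 overlapped at 20.9 to 27.9 and 20.1 to 35.1 CPM, with a log2FC of 0.27 (SE 0.23), and shares 10.1% of its exon bases with Gm11491. After GC correction the log2FC of Ska2 was 0.05, and the median of the SKA genes went from 0.60 to 0.54.

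All 5 checkpoint genes had positive log2FCs and an unadjusted edgeR p below 0.05, as did 6.35% of all tested genes. Their median log2FC was 0.70, and 0.54 after GC correction, when none was called. Bub1 alone was called, where 0.398% of all tested genes were called higher. Mad2l1, whose protein inhibits the anaphase activator CDC20, was at 25.1, 40.2 and 33.7 CPM in WT embryos against 55.3, 60.2 and 51.7 CPM in Apert embryos (log2FC 0.76, SE 0.19, adjusted p = 0.103). Ttk, the MPS1 kinase that starts checkpoint signalling on KNL1, was at 16.0, 29.1 and 25.5 CPM in WT embryos against 37.0, 35 and 42.6 CPM in Apert embryos (log2FC 0.70, SE 0.22, adjusted p = 0.21). Bub3, the adaptor that binds KNL1 with BUB1, was at 41.6, 36.6 and 41.2 CPM in WT embryos against 68.7, 48.3 and 60.1 CPM in Apert embryos (log2FC 0.57, SE 0.18, adjusted p = 0.204). The 3 genes had no overlap between genotypes, with Apert above WT as in 8.92% of all tested genes. Bub1b, which encodes the checkpoint protein BUBR1, was at 24.0, 51.5 and 41.9 CPM in WT embryos against 44.1, 62.1 and 65.5 CPM in Apert embryos, with an overlap and a log2FC of 0.55 (SE 0.24, adjusted p = 0.397).

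**Figure D2:**
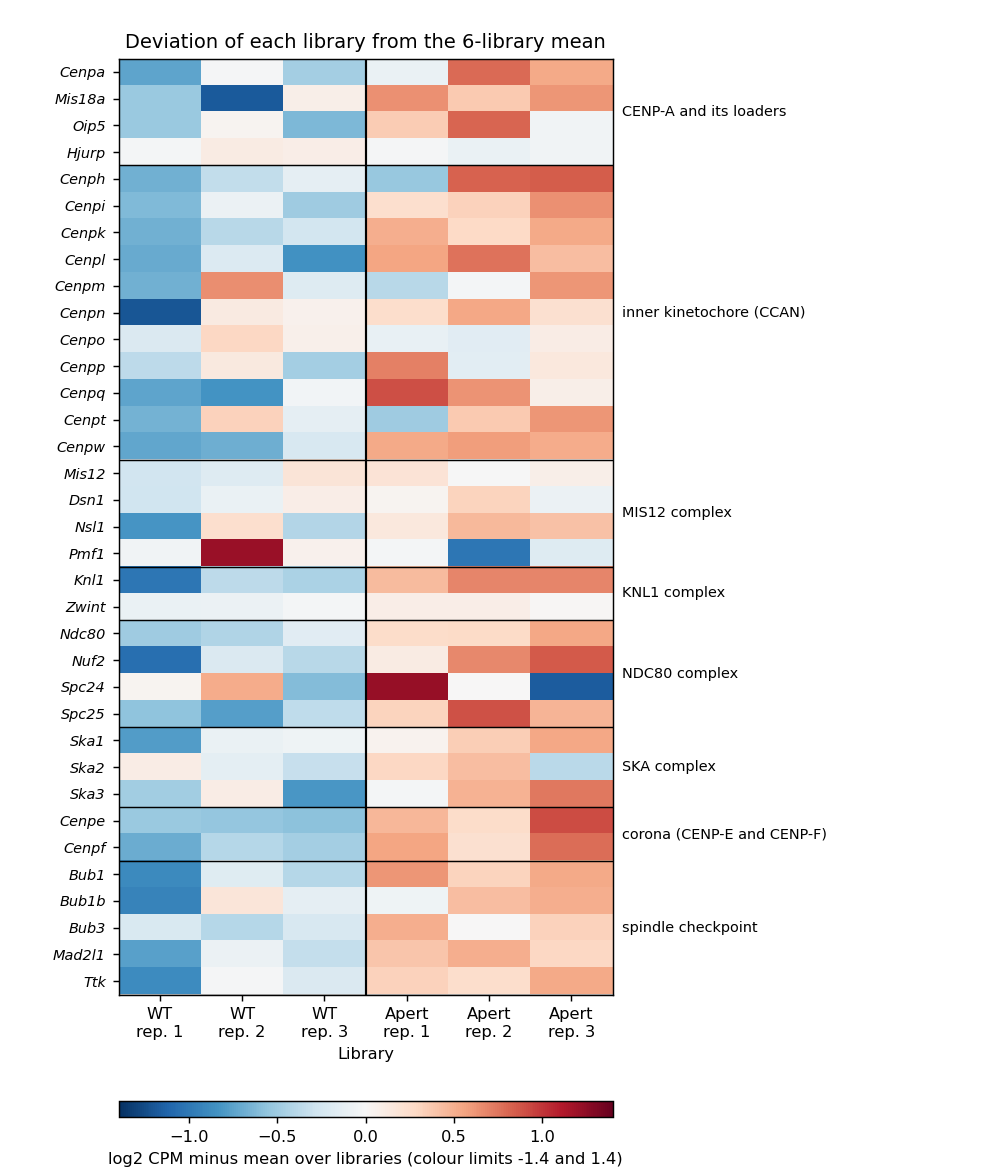
Log2 CPM of each member minus its mean over the 6 libraries (colour scale, red above and blue below the mean), with libraries in columns, WT left of the vertical line, and members in rows grouped by complex. WT replicate 1 is the lowest library for 22 members, and rows such as Hjurp, Zwint and Mis12 stay pale throughout.

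The members varied between libraries of one genotype as well. WT replicate 1 was the lowest of the 6 libraries for 22 of the 35 members, against 15.5% of all tested genes. The highest library was Apert replicate 3 for 12 members, Apert replicate 2 for 11 and Apert replicate 1 for 8, and it was WT replicate 2 for the remaining 4. The mean deviation of the members from the 6-library mean (log2 CPM, prior count 2) was -0.55, -0.11 and -0.26 in the WT libraries and 0.25, 0.32 and 0.34 in the Apert libraries. Genotypes were thus apart on this mean, with more spread among the WT than among the Apert libraries. Without WT replicate 1 the median log2FC of the members was 0.60, and without WT replicate 2 it was 0.87. Summed over all 35 members, 940 CPM, 1161 CPM and 1087 CPM were found in WT and 1581, 1563 and 1760 CPM in Apert.

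Levels can be compared between genes only per length, here as the mean CPM per kilobase of summed exon length. The order differed between the genotypes, so it is given within each. In WT the highest mean was that of Hjurp at 30.9 ± 1.59 CPM per kb, followed by Bub3 at 19.4 ± 1.35, Zwint at 18.6 ± 0.467, Mad2l1 at 15.0 ± 3.45 and Cenpe at 14.2 ± 0.289 (SD, n = 3). In Apert the means of Cenpe at 30.8 ± 7.46, Bub3 at 28.7 ± 4.99 and Hjurp at 28.6 ± 0.78 CPM per kb lay within the spread of their libraries, and Mad2l1 at 25.3 ± 1.93 and Zwint at 20.5 ± 0.626 came next (SD, n = 3). Hjurp was above the other members in every WT library and was not separated from Cenpe and Bub3 in Apert. The lowest mean in both genotypes was that of Mis18a, at 0.89 CPM per kb in WT and 1.78 in Apert. Among the NDC80 subunits Spc25 had the lowest mean in both genotypes, at 4.08 and 8.94 CPM per kb, and in WT Spc24, Ndc80 and Nuf2 were at 8.97, 7.43 and 6.61. Among the MIS12 subunits Mis12 had the highest mean in both, at 7.61 and 8.53 CPM per kb, and Dsn1 the lowest, at 2.31 and 2.63.

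The fold changes followed GC content across the whole table, and the members lie on the low side of it. The longest annotated transcript had a median GC content of 43.9% over the members and 48.9% over 13192 tested genes with a value. The 6 called members lay between 37.7% and 43.3%, all within the lowest GC quintile of tested genes (15.3% to 43.4%), which held 17 of the 35 members. Spearman's rho between GC content and log2FC was -0.41 across all tested genes and -0.59 across the 35 members, which share libraries and are not independent. With transcript length, rho was 0.00 and 0.24.

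Within the lowest GC quintile the members had a median log2FC of 0.95, against 0.20 for all 2639 genes there. All 17 members there were positive, as were 77.9% of all genes, and 6 were called, as were 1.48% of all genes. In the next quintile 7 members had a median of 0.76 against 0.10, and in the middle quintile 8 members had a median of 0.37 against 0.00. The remaining 3 members, Cenpt, Spc24 and Cenpm, lay in the upper quintiles. After the correction the all-gene medians of the quintiles were between -0.01 and 0.01, and those of the members in the 3 lower quintiles were 0.74, 0.64 and 0.34. The correction moved the median of all 35 members from 0.71 to 0.58, and 31 of them stayed positive, against 50.3% of all tested genes. It shrank the low-GC genes most, such as Knl1 (1.19 to 0.92) and Cenpw (1.08 to 0.80), left Cenpa at 0.82, and raised GC-rich Cenpm from 0.08 to 0.31. For Cenpw the longest transcript has 4143 bases and the counted exons sum to 1510, and for Mad2l1 these are 7557 and 2203. The GC content of these and of other members with such a mismatch may not describe the counted sequence.

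**Figure D3:**
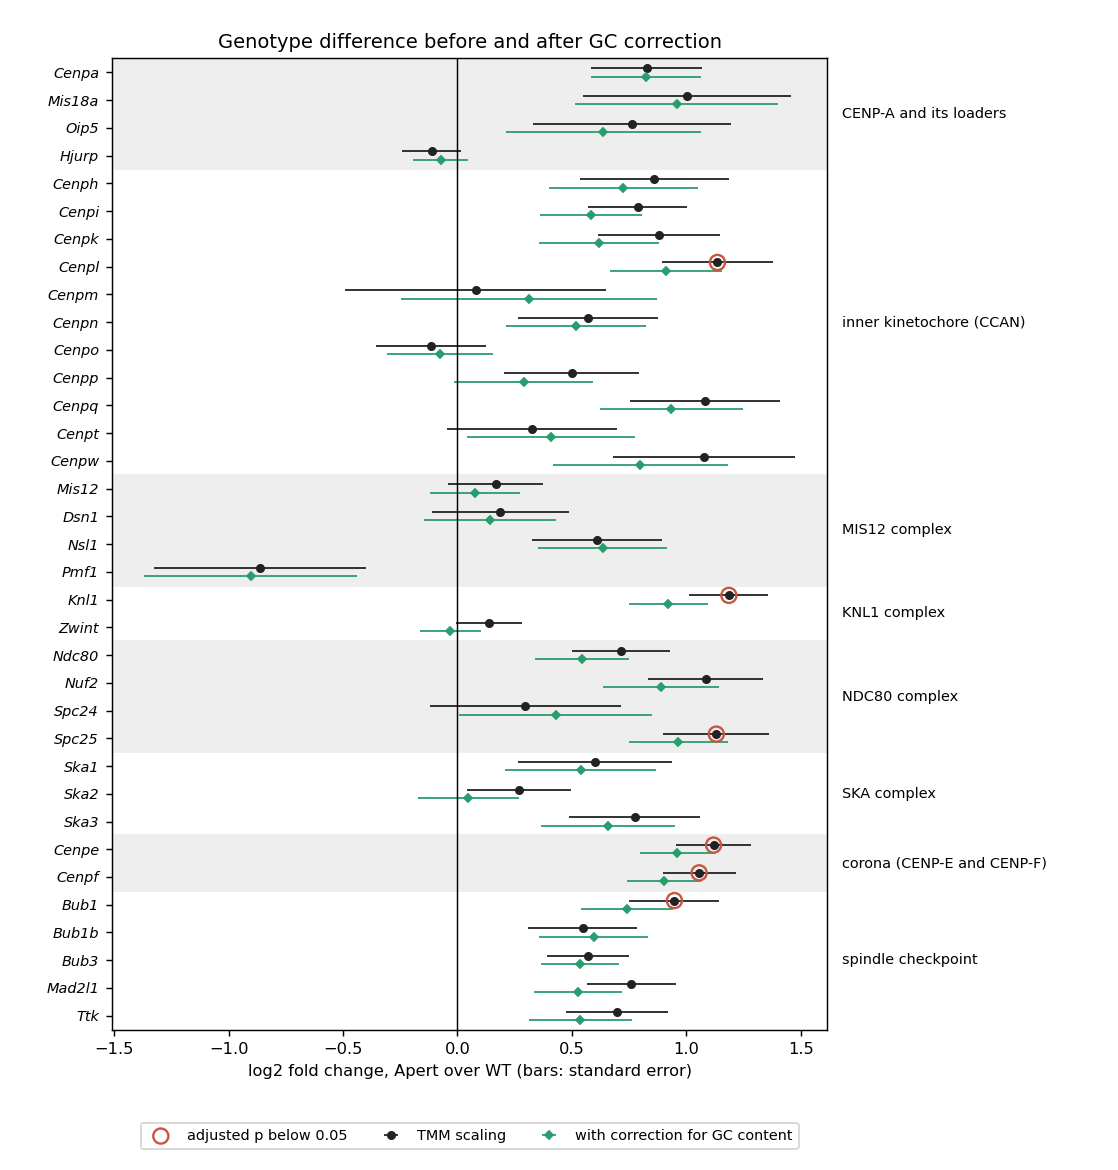
Log2 fold change (Apert over WT) of each member with its SE, before (black circles) and after (green diamonds) correction for GC content, with red rings around the 6 called genes. The green values of the called genes are lower than the black ones and stay above 0.7, and no gene is called after the correction.

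**Figure D4:**
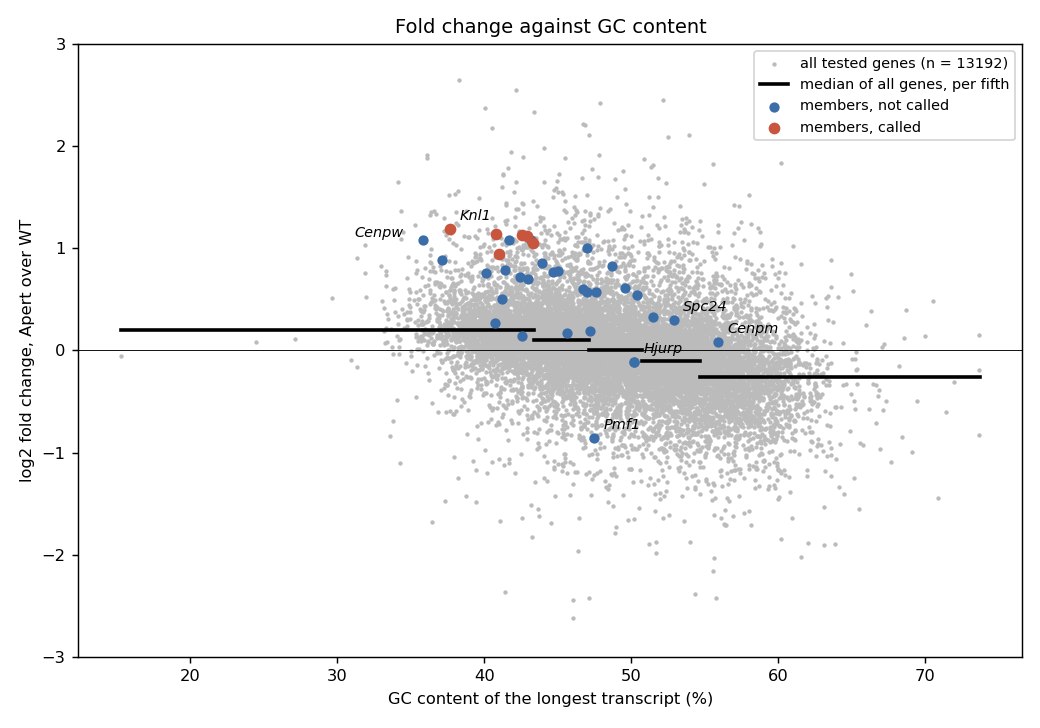
Log2 fold change (Apert over WT) against GC content of the longest transcript for 13192 tested genes (grey) and the 35 members (blue, and red where called). Black bars give the median of all genes in each quintile of GC content, falling from 0.20 to -0.26, and the called members sit at 37.7% to 43.3% GC above that median.

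Of 36 other genes of the centromere, kinetochore and checkpoint, listed by role, 34 were tested, 3 rose and none fell, where 0.398% and 0.0525% of all tested genes were called in those directions. Among them the centromeric cohesion protectors Sgo1 and Sgo2a had log2FCs of 1.24 and 1.3 (adjusted p = 0.00453 and 0.0175), though 49.7% of the exon bases of Sgo2a are shared with Kctd18 on the opposite strand. The next by p were Trip13, Kif18a, Zwilch and Spag5 with log2FCs of 0.79, 0.79, 1.06 and 0.90 (adjusted p = 0.11, 0.112, 0.144 and 0.153). Over the 34 genes the median log2FC was 0.46. With an unadjusted edgeR p below 0.05, 16 were higher in Apert (6.35% of all tested genes) and 1, Cenpb, was lower (5.01%). None of the 34 was called without WT replicate 3 or without Apert replicate 2. After GC correction Sgo1 alone was called (adjusted p = 0.0353).

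Of 18 markers of dividing cells outside the kinetochore, all tested, 4 rose, none fell and 14 did not pass, where 0.398% of all tested genes were called higher. The 4 were Mki67, Top2a, Ccnb1 and Prc1, with log2FCs from 0.93 to 1.06. Each was called in at most 3 of the 6 fits with 1 library left out, and after GC correction Mki67 alone was called (adjusted p = 0.0484). The median log2FC of the 18 was 0.52, and 0.40 after GC correction, and 16 of them were positive, against 51.1% of all tested genes. An unadjusted edgeR p below 0.05 with a higher value in Apert was found for 11, against 6.35% of all tested genes. In 10 all Apert libraries lay above all WT libraries, as in 8.92% of all tested genes. The replication genes Mcm2, Mcm3, Mcm5 and Mcm6 lay between -0.38 and 0.09. Pcna, Tyms, Rrm1 and Rrm2, which also serve replication, were at 0.33, 0.41, 0.52 and 0.52. Ccne1 was at -0.41 and Ccne2 at 0.46. Cdk1, Tpx2, Ccna2 and Anln were at 0.53, 0.55, 0.71 and 0.89, and none of these 14 genes was called. Summed, the 18 genes were at 1248 to 1923 CPM in WT embryos against 2565 to 3056 CPM in Apert embryos, without overlap, of which Mki67 made up 518 to 816 CPM and 1234 to 1605 CPM. The part of dividing cells in the result was not tested.

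Markers of fibrous tissue around the cartilage were also apart, at 1982 to 2271 CPM in WT embryos against 2714 to 3062 CPM in Apert embryos summed over 8 genes, and their part in the result was not tested. Their median log2FC was 0.65, and 0.69 after GC correction. Of the 8, 7 were positive (51.1% of all tested genes) and 1, Dcn, was negative (-0.22). An unadjusted edgeR p below 0.05 with a higher value in Apert was found for 6 (6.35%). The log2FC was largest for Aspn (1.37, adjusted p = 0.0834), and that of Col1a1 was 0.84, and 1.17 after GC correction. Col1a2, at 1154 to 1271 CPM in WT embryos against 1260 to 1437 CPM in Apert embryos, was the most abundant of the 8 and did not pass (log2FC 0.17). Col3a1 and Ogn rose (log2FCs 0.69 and 0.93), but each was called in only 1 of the 6 fits with 1 library left out and neither after GC correction (adjusted p = 0.0508 and 0.267). Glial markers, mainly Sox10 and S100b, summed to 237 to 300.1 CPM in WT embryos against 180.1 to 206 CPM in Apert embryos, and their part was likewise not tested. None of the 8 chondrocyte markers was called by edgeR, and 2 had an unadjusted p below 0.05, both with a lower value in Apert. Sox9, the chondrocyte transcription factor, was at 845, 797 and 638 CPM in WT embryos against 618, 480.3 and 338 CPM in Apert embryos, without overlap (log2FC -0.67, adjusted p = 0.125, and -0.65 after GC correction). Acan, the cartilage proteoglycan aggrecan, had a log2FC of -0.48 (adjusted p = 0.322, and -0.28 after GC correction). The part of these values in the result was not tested. The sum of the 8, of which Col2a1 is the largest, overlapped between the genotypes (31380 to 41670 against 33400 to 35790 CPM). So did the sums for red blood cells (49.2 to 87.1 against 57.0 to 66.8 CPM), leukocytes (4.33 to 7.04 against 4.26 to 12.7 CPM), endothelium (1.04 to 2.71 against 1.59 to 3.73 CPM) and osteoblasts, which were represented almost by Runx2 alone. The epithelial, neuronal and muscle lists summed to at most 2.59, 2.80 and 0.648 CPM in any library, and Krt14, Cdh1, Ibsp, Myod1 and Myog had 0 counts in all 6, which allows up to 3 counts in each. Removal of the mitochondrially encoded genes before scaling left 5 of the 6 members called, all but Cenpl.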

How the data were processed

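Per the labels' protocols, cartilage was laser captured from frozen sections, cDNA was amplified from 15 ng of RNA (NuGEN Ovation) and tagged with Nextera XT, and 100 bp read pairs were sequenced. Values are fragment counts per Ensembl gene, as the authors deposited them: per the file headers, featureCounts 1.4.4 summed exons per gene without strand on Ensembl models (GRCm38). STAR 2.5.2b, cutadapt and mm10 stand in the submitters' processing notes. Amplification can favour transcripts by GC content, and its part was not tested.

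In R 4.3.3, edgeR 4.0.16 filtered 38924 genes (filterByExpr) to 13333, scaled libraries (TMM) and tested genotype with the quasi-likelihood F test and Benjamini-Hochberg adjustment at 0.05. CPM use TMM-scaled totals. A standard error is the log2 fold change over the square root of F. GC content comes from the longest GENCODE transcript, which can differ from the counted exons, and then GC content and its correction may not describe the counted sequence. The correction subtracts, as an offset, the spline trend on GC fitted in each library (mgcv 1.9.3). Symbols were matched for 37607 genes. The scripts were tested on simulated data. Alternatives used DESeq2 1.42.0, limma-voom (limma 3.58.1), other scalings, filters, offsets, thinned counts, a replicate block and libraries left out. Every member could be named, and of the other kinetochore genes those called, except 1 that is not reported here, and 4 more by p. The members and lists were chosen with earlier results of these data known. Leaving out libraries under GC correction was added after seeing the data.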

Additional observations from a re-analysis of the deposited data

How the results depend on the processing

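No member was called lower in any alternative, and the members' median log2FC stayed positive in all. Members called higher fell from 6 to 3 with library totals only, 2 with GC and length correction and 0 with GC correction. Leaving out 1 library gave 0 to 9. With GC correction it gave 0, 1 and 0 members without WT replicates 1, 2 and 3 and 3, 0 and 0 without Apert replicates 1, 2 and 3, a median log2FC from 0.471 (without WT replicate 1) to 0.755, and in the same order 0, 11, 0, 40, 0 and 0 calls over all genes. Of the other kinetochore genes (3 called) 6 were called with DESeq2, 5 without a filter, 1 with GC correction and 1 with GC and length correction. Leaving out 1 library gave 0 to 4 of them, and 0, 1, 0, 2, 0 and 0 with GC correction. Over all genes (60 called) the counts were 204 with DESeq2, 247 unfiltered, 5 with GC correction, 8 with GC and length correction, 129 at an adjusted p below 0.1 and 0 to 229 with 1 library left out. DESeq2 gave an adjusted p to 30 of the 35 members and called 9.

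Whether the replicate numbers pair the samples could not be decided from so few libraries. Same-numbered deviations correlated at 0.194, 0.020 and 0.086, and those of unlike numbers between -0.145 and 0.070. Not every sample correlated best with its own number. With the replicate as a block 9 members and 172 genes were called, and with block and GC correction 3 members.

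Of 870 member values under alternatives 24 had the opposite sign. Cenpm was -0.076 with library totals only, between -0.247 and 0.523 with 1 library left out, and -0.019 with GC correction without Apert replicate 3. Cenpo was between -0.236 and 0.009 with 1 library left out (0.009 without WT replicate 2, and 0.037 with GC correction as well). With GC correction and without Apert replicate 1, Cenpp was -0.016, Spc24 -0.411 (-0.543 to 0.683 uncorrected with 1 library left out), Mis12 -0.006 and Ska2 -0.052. Mis12 was -0.011 without WT replicate 1, and Ska2 was -0.070 without WT replicate 3 and -0.077 without Apert replicate 2, all GC corrected. Zwint was -0.018 with library totals only, -0.032 with GC correction, -0.041 with GC and length correction, -0.031 with block and GC correction, and with GC correction -0.050, -0.039, -0.068, -0.033 and -0.029 without WT replicates 1 and 3 and Apert replicates 1, 2 and 3. The causes were not tested. Genes with few counts, such as Cenpm, Mis18a and Pmf1, had standard errors from 0.46 to 0.57. Mis18a did not pass at a log2FC of 1.0 (edgeR quasi-likelihood, adjusted p = 0.419). Nuf2, with 129 to 272 counts per library, did not pass at a log2FC of 1.08 with an SE of 0.25 (edgeR quasi-likelihood, adjusted p = 0.0699). Differences of several standard errors could thus be missed, in genes with few counts and in others, at this depth and with 3 libraries per group.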
